A study of Homo sapiens with 48 samples.

Results

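The genes described here are 10 matricellular and fibril-associated glycoproteins of the extracellular matrix, TGFBI, POSTN, TNC, THBS1, THBS2, SPARC, FBN1, FBLN5, ELN and MFAP5, picked by name from the 29744 genes of the deposited count table. RNA-seq was carried out on CRL-4001 cells, a telomerase-immortalized human skin fibroblast line that carried an IL-11 mNeonGreen reporter. In the CRISPRko arm the cells expressed Cas9, with H47_Ctrl as the control and H47_KO as the GLIS3 knockout, and in the CRISPRa arm they expressed dCas9–VP64, with VP64_Ctrl as the control and VP64_A as the GLIS3 activation cells. The labels give 1 cell line entry, with Cas9 and GLIS3 knockout, for all 48 libraries, so the CRISPRa arm is named here from the sample descriptions and the study's methods. Each of the 4 cell populations was exposed to TGFβ plus IL-1β, each at 10 ng/ml, for 0, 6, 12 or 24 h, with 3 libraries per condition and 16 conditions in all. The cells were drug-selected bulk populations that received guide RNA by lentivirus, so an edited population is a mixture and not a clone. The labels do not say that the 3 libraries of a condition came from separate cultures, and p-values therefore measure the spread between libraries, which may be technical. In the CRISPRa arm the sample titles and the sample descriptions disagree on which cells were activated. Where the description reads VP64_A the title reads control, and where it reads VP64_Ctrl the title reads GLIS3 activation, and the groups below follow the descriptions, which are also the column names of the table. Every direction given for VP64_A over VP64_Ctrl turns if the titles are taken instead.

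Matricellular proteins are secreted into the extracellular matrix and tune how cells attach, spread and signal, rather than bearing load themselves. They are made during wound repair and fibrosis, and many of them are classical targets of TGFβ in fibroblasts. TGFBI and POSTN are paralogous fasciclin-domain proteins that bind collagen and integrins. TNC is tenascin C, THBS1 and THBS2 are thrombospondins, of which THBS1 can activate latent TGFβ, and SPARC is a collagen-binding glycoprotein. FBN1 builds microfibrils, MFAP5 attaches to them, FBLN5 links elastin to cells, and ELN encodes tropoelastin, the core of the elastic fibre. A bulk library reads the RNA of all cells together, so fewer expressing cells and less RNA per cell cannot be told apart.

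The libraries held between 2321990 and 10661004 estimated counts, with a median of 5139646. GLIS3, the targeted gene, ran from 1.55 to 8.63 CPM in H47_Ctrl and from 0.146 to 2.46 CPM in H47_KO, where CPM is the count scaled by library size. It lay between 2.31 and 5.29 CPM in VP64_Ctrl and between 13.5 and 38.02 in VP64_A, so the measured GLIS3 level goes with the descriptions and against the titles. All 10 fibroblast markers were above 0 in every library, with a summed level of 11383 to 32132 TPM (transcript abundance scaled by length). VIM was the largest part of that sum in each population, at 8824 to 23817 TPM. Medians of single markers over all libraries ran from 20.1 TPM for DCN to 17341 TPM for VIM. EPCAM, CD3E and TYR, markers of epithelial cells, T cells and melanocytes, were at 0 counts in all 48 libraries. Among 4 epithelial markers KRT14 stood out, and their summed level was 2.17 to 12.8 TPM in VP64_Ctrl and 14.1 to 78.9 TPM in VP64_A, against at most 1.66 TPM in H47_Ctrl. CDH1 and KRT5 reached at most 2 and 1 counts in any library. The smooth muscle markers summed to at most 3.00 TPM in VP64_Ctrl and to 2.56 to 8.52 TPM in VP64_A, mostly CNN1, and the endothelial, leukocyte and melanocyte lists to at most 0.615, 2.35 and 0.879 TPM in any library. The part of the KRT14 and CNN1 differences in the results for VP64_A was not tested. The scaling factor that TMM normalisation gave a library ran from 0.664 to 1.86, and it was above 1.5 in 3 libraries, replicate 3 of H47_KO at 0 h, replicate 3 of H47_KO at 24 h and replicate 3 of VP64_Ctrl at 0 h. Each of these 3 libraries held the lowest SPARC of its condition.

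The sequences before the start sites show which short elements the members share upstream. RefSeq promoter entries on GRCh38.p14 were found for 8 of the 10 members (FBLN5 had 2), and the 250 bases before the start site were searched on both strands for the SMAD element CAGAC, the AP-1 element TGANTCA, the TEAD element CATTCC, the GLIS element TGGGGGGT, the TATA box TATAAA and the NF-kB consensus. The upstream sequences of 6 members are printed 5′ to 3′ on the strand of the gene, with every match in capitals: THBS1, THBS2, SPARC and FBN1 because they hold the TEAD element, TNC because it rose with the cytokines at every time, and TGFBI because it changed in both arms.
TGFBI: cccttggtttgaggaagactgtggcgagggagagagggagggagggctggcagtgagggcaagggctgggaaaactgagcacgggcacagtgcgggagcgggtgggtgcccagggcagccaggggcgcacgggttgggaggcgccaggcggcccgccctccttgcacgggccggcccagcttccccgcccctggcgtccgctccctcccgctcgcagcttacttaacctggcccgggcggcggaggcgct
TNC: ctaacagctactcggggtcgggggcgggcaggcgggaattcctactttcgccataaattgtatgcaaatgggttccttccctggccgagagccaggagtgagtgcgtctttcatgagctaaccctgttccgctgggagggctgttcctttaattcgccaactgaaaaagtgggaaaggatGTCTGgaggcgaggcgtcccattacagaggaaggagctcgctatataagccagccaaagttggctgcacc
THBS1: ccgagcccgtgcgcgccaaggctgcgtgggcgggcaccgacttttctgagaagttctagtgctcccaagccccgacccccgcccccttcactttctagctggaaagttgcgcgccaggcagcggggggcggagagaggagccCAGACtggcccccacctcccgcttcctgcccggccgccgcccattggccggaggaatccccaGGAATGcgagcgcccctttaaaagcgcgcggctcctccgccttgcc
THBS2: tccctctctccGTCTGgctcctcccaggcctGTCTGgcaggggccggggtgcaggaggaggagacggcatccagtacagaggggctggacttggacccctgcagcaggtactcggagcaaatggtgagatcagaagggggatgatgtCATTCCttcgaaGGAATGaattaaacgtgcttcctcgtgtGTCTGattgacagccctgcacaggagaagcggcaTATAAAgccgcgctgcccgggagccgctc
SPARC: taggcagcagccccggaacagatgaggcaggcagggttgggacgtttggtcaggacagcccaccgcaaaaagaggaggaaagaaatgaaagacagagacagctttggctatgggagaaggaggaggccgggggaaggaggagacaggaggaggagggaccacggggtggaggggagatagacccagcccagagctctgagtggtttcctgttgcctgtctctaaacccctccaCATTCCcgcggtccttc
FBN1: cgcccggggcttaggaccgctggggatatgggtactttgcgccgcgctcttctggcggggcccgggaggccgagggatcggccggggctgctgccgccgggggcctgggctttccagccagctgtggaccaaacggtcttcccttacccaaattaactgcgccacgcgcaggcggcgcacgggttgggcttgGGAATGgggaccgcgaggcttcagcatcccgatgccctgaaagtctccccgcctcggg
These windows lie at chr5:136028738-136028987 (plus strand), chr9:115118158-115118407 (minus), chr15:39580829-39581078 (plus), chr6:169253847-169254096 (minus), chr5:151686916-151687165 (minus) and chr15:48644971-48645220 (minus). No searched element occurred in the TGFBI window. The TEAD element was found in 4 of 8 members, at 41 to 46 bases before the start site in THBS1, 12 to 17 in SPARC and 53 to 58 in FBN1, and THBS2 held it on both strands. It occurs in 11.9% of all 35116 RefSeq promoter windows of the same length. The SMAD element was found in POSTN, TNC, THBS1, THBS2 and 1 window of FBLN5, that is in 5 of 8 members, against 38% of all windows. POSTN alone held an AP-1 element (6.57% of all windows), and POSTN, THBS2 and FBLN5 held the TATA box letters TATAAA (10.7%). Other spellings of a TATA box were not searched, such as the tatataag near the end of the TNC window. Neither the GLIS element (1.33% of all windows) nor the NF-kB consensus (5.21%) was found in any member. No match overlapped a match of another element. A match is a description of the letters and not evidence of binding. In the GENCODE annotation of GRCh38 no other gene overlaps TGFBI (chr5:136028988-136063818), POSTN or FBLN5, while a gene on the opposite strand overlaps each of TNC, THBS1, THBS2, SPARC, FBN1, ELN and MFAP5. Whether counting used strand is not given in the sources used here, so reads of those 7 members and of their antisense partners may not be separated.

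Compared per transcript length, SPARC and THBS1 were the most abundant members in all 4 cell populations. SPARC had a median of 2266 TPM in H47_Ctrl, 2145 in H47_KO, 1555 in VP64_Ctrl and 3199 in VP64_A over 12 libraries each, and in VP64_A it ranked between 50 and 70 among all genes of a library. THBS1 had medians of 1916, 1823, 972 and 710.3 TPM in the same order, with single libraries from 155 to 5378 TPM. Over the time course the 2 genes overlapped in H47_Ctrl, H47_KO and VP64_Ctrl, while in VP64_A every SPARC value, from 2771 TPM, lay above the highest THBS1 value of 1619 TPM. TNC and TGFBI followed in H47_Ctrl, with medians of 322 and 299 TPM and overlapping ranges. TGFBI was at 127 TPM in H47_KO, 61.2 in VP64_A and 26.1 in VP64_Ctrl, so its order against FBLN5, at 52.2 and 68.2 TPM in the last 2, differed between populations. THBS2 and FBN1 lay close together, at medians of 37.7 and 29.2 TPM in H47_Ctrl. POSTN and MFAP5 were near the limit of detection, with medians from 0 to 2.26 TPM for POSTN and from 0.396 to 3.81 TPM for MFAP5.

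**Figure D1:**
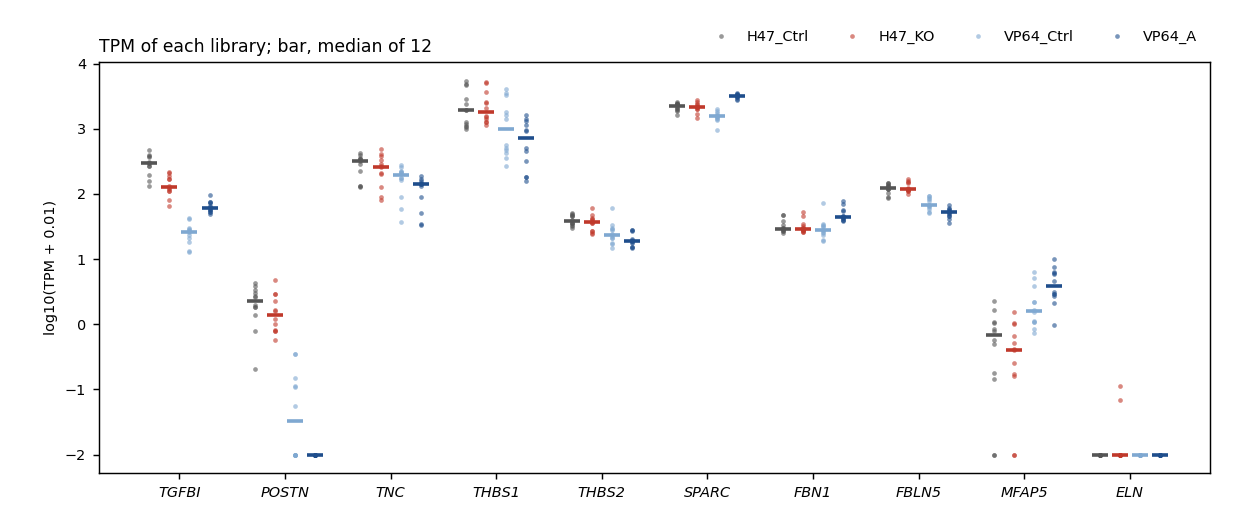
Levels of the 10 members in TPM on a log10 scale (0.01 TPM added), each point 1 of 12 libraries per cell population and each bar their median. SPARC and THBS1 sit at the top in all 4 populations, POSTN drops to 0 in VP64_A, and ELN is at 0 in all but 2 libraries.

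ELN, the elastin gene itself, was practically unmeasured. It had 0 counts in 46 of 48 libraries and 1 count in replicate 2 of H47_KO at 0 h and in replicate 3 at 12 h. A count of 0 allows up to 3 counts, or 0.281 to 1.29 CPM depending on the library, by counting error alone, and ELN was not tested. POSTN had 0 counts in all 12 VP64_A libraries and 0 to 5 counts in VP64_Ctrl, against 1 to 42 in H47_Ctrl and 4 to 86 in H47_KO, so that it was tested in the CRISPRko arm and not in the CRISPRa arm. MFAP5 was the reverse, with 0 to 7 counts in H47_Ctrl and 0 to 6 in H47_KO but 5 to 40 in VP64_Ctrl and 6 to 70 in VP64_A. Each arm thus tested 8 members. A member was called in a comparison when its p-value, adjusted over all genes tested, was under 0.05.

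The knockout comparison asks which members differ between H47_KO and H47_Ctrl, and of the 8 tested TGFBI was the 1 member called, lower in H47_KO. In either arm, an effect of GLIS3 and another difference between the populations compared cannot be told apart. Values are normalised CPM, scaled within each arm, for replicates 1 to 3. At 0 h TGFBI was at 493, 322 and 222 in H47_Ctrl and at 133, 152 and 147 in H47_KO. At 6 h it was at 595, 551 and 621 in H47_Ctrl and at 236, 324 and 229.8 in H47_KO. Every H47_KO library lay below every H47_Ctrl library at both times. At 12 h the H47_Ctrl libraries spread over 272, 536 and 557 and overlapped the H47_KO libraries at 284, 318 and 334. At 24 h the groups were apart again, at 717, 834 and 676 in H47_Ctrl and 356, 316 and 260.2 in H47_KO. The log2 fold change (± SE) was -1.27 ± 0.24 at 0 h (adjusted p = 0.0118), -1.16 ± 0.24 at 6 h (adjusted p = 0.0208), -0.54 ± 0.24 at 12 h (adjusted p = 0.565) and -1.26 ± 0.24 at 24 h (adjusted p = 0.0145), which is 2.41-fold, 2.24-fold and 2.39-fold lower at the 3 called times. Averaged over the 4 times it was -1.06 ± 0.12 (adjusted p = 6.18e-07), and this call stood in every fit that left out 1 library.

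Each of the 3 calls at single times was lost when certain libraries were left out. At 0 h TGFBI was no longer called without replicate 1 of H47_Ctrl at 0 h (log2 -0.92, adjusted p = 0.196), replicate 1 of H47_KO at 0 h (log2 -1.22, adjusted p = 0.0786) or replicate 2 of H47_KO at 0 h (log2 -1.31, adjusted p = 0.0636). At 6 h the call was lost without replicate 1 of H47_Ctrl at 6 h (log2 -1.17, adjusted p = 0.0832), replicate 3 of H47_Ctrl at 6 h (log2 -1.13, adjusted p = 0.0637), replicate 1 of H47_KO at 6 h (log2 -1.10, adjusted p = 0.0845) or replicate 3 of H47_KO at 6 h (log2 -1.07, adjusted p = 0.0998). At 24 h it was lost without replicate 2 of H47_Ctrl at 24 h (log2 -1.16, adjusted p = 0.121), replicate 2 of H47_KO at 24 h (log2 -1.27, adjusted p = 0.0698) or replicate 3 of H47_KO at 24 h (log2 -1.14, adjusted p = 0.0868), and when libraries were scaled by their totals (adjusted p = 0.0507). The direction was kept in each of these fits. Whether the difference itself varied with time was tested with 3 degrees of freedom, and TGFBI did not pass (adjusted p = 0.678). In this edgeR test 0 of 8 members had an adjusted or an unadjusted p under 0.05, and DESeq2 called 0 as well.

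The other 7 tested members were called at no time between H47_KO and H47_Ctrl. GLIS3 itself was lower in every H47_KO library at each time. By edgeR's quasi-likelihood test it was called at 0 h (adjusted p = 0.0355) and not at 6, 12 or 24 h (adjusted p = 0.0925, 0.507 and 0.383). A missing call at a single time is therefore not evidence of no difference. POSTN, the paralogue of TGFBI, was at 4.74, 4.38 and 4.42 in H47_Ctrl and 1.37, 2.48 and 3.87 in H47_KO at 6 h, where the libraries did not overlap and the log2 fold change was -0.79 ± 0.45 (adjusted p = 0.526). TNC did not overlap at 0 h, at 546, 607 and 620.2 in H47_Ctrl and 465, 473 and 426 in H47_KO, with a log2 fold change of -0.38 ± 0.29 (adjusted p = 0.673). In TPM TNC did overlap at 0 h, with replicate 1 of H47_Ctrl at 127 and replicate 3 of H47_KO at 129. SPARC did not overlap at 12 h, at 3748, 5083 and 5294 in H47_Ctrl and 6145, 5309 and 6182 in H47_KO, with 0.32 ± 0.34 (adjusted p = 0.878). How many of all genes were apart in this way was not counted, so these separations are descriptions only. Averaged over the 4 times the log2 fold changes were -0.38 ± 0.22 for POSTN, -0.11 ± 0.15 for TNC, 0.10 ± 0.18 for THBS1 and -0.10 ± 0.10 for THBS2. They were 0.052 ± 0.17 for SPARC, 0.029 ± 0.081 for FBN1 and 0.12 ± 0.10 for FBLN5, and none of these 7 exceeded 2 SE. FBN1 had the smallest SE of the 7 and POSTN the largest. The share of all tested genes called in this contrast was 0.301% at 0 h, 0.319% at 6 h, 0.0821% at 12 h and 0.21% at 24 h, against 1, 1, 0 and 1 of 8 members. At 12 h TGFBI was the 1 member with an unadjusted p under 0.05. These shares rest on few genes, 33, 35, 9 and 23 in turn, which became 2 to 52, 5 to 28, 4 to 8 and 6 to 104 when 1 library was left out and 125, 176, 43 and 35 with DESeq2. The lowest numbers came without replicate 1 of H47_Ctrl at 0 h, replicate 1 of H47_Ctrl at 6 h, replicate 3 of H47_KO at 12 h and replicate 2 of H47_Ctrl at 24 h. Over the 4 times it was 3.07% against 1 of 8 members, and for the change with time 0.0365% against 0 of 8.

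In the activation comparison 7 of 8 tested members differed between VP64_A and VP64_Ctrl when averaged over the 4 times, against 18.4% of all genes tested. The members were chosen with earlier results of these data known, so this contrast of shares is a description and not an independent test. TGFBI, SPARC, FBN1 and MFAP5 were higher in VP64_A and TNC, THBS1 and FBLN5 were lower, while THBS2, at -0.17 ± 0.10 (adjusted p = 0.228), was not called. With library totals 4 members were called higher and 4 lower over the 4 times, THBS2 among the lower. At 24 h THBS2 was called with library totals (log2 -0.74, adjusted p = 0.0311) and with only the libraries compared (log2 -0.49, adjusted p = 0.0427), and not in the quasi-likelihood fit used here (adjusted p = 0.214). The median log2 fold change of the 8 members was 0.37, against -0.0037 over all genes tested. At single times 4, 2, 4 and 4 of 8 members were called at 0, 6, 12 and 24 h, against 9.41%, 3.76%, 4.31% and 4.13% of all genes. The share at 0 h stands for 1033 genes, which became 491 without replicate 3 of VP64_Ctrl at 0 h, the library with the scaling factor of 1.86. Of these 14 calls 13 were higher and 1 lower in VP64_A, against 14 and 4 with DESeq2 and 12 and 6 when libraries were scaled by their totals.

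TGFBI had the largest log2 fold change of the 8 members averaged over the 4 times, while MFAP5 was larger at 6 and 12 h. At 0 h it was at 19.7, 20.6 and 20.4 normalised CPM in VP64_Ctrl and at 86.5, 126 and 95.4 in VP64_A. At 6 h it was at 78.3, 64.8 and 67.2 in VP64_Ctrl and at 130.2, 171 and 146 in VP64_A. On this scale the VP64_Ctrl libraries at 0 h lay close together and below all other libraries of the arm. In TPM they were less alike, at 13.1, 12.6 and 20.7, and replicate 1 of VP64_Ctrl at 12 h was at 18.3. Replicate 3 of VP64_Ctrl at 0 h had the scaling factor of 1.86. At 12 h TGFBI was at 38.7, 72.0 and 73.9 in VP64_Ctrl and at 130.1, 158 and 144 in VP64_A. At 24 h it was at 50.1, 40.8 and 46.5 in VP64_Ctrl and at 131, 119 and 142 in VP64_A. The groups did not overlap at any time. As log2 fold changes these differences were 2.34 ± 0.19 at 0 h (adjusted p = 1.36e-10), 1.08 ± 0.18 at 6 h (adjusted p = 1.95e-04), 1.23 ± 0.18 at 12 h (adjusted p = 2.69e-05) and 1.51 ± 0.19 at 24 h (adjusted p = 1.05e-06). Averaged over the times it was 1.54 ± 0.093 (adjusted p = 1.82e-14), or 2.91-fold. TGFBI was the 1 member of 8 whose VP64_A difference changed with time (adjusted p = 0.0386; 0.428% of all genes passed). This call was lost without any 1 of 17 of the 24 libraries, with adjusted p from 0.00547 to 0.177 over the 24 fits, and its adjusted p was 0.398 when libraries were scaled by their totals. It was kept only without replicate 1 of VP64_A at 0 h, 2 of VP64_A at 6 h, 1 or 2 of VP64_A at 12 h, 1 of VP64_Ctrl at 12 h, or 2 or 3 of VP64_Ctrl at 24 h.

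**Figure D2:**
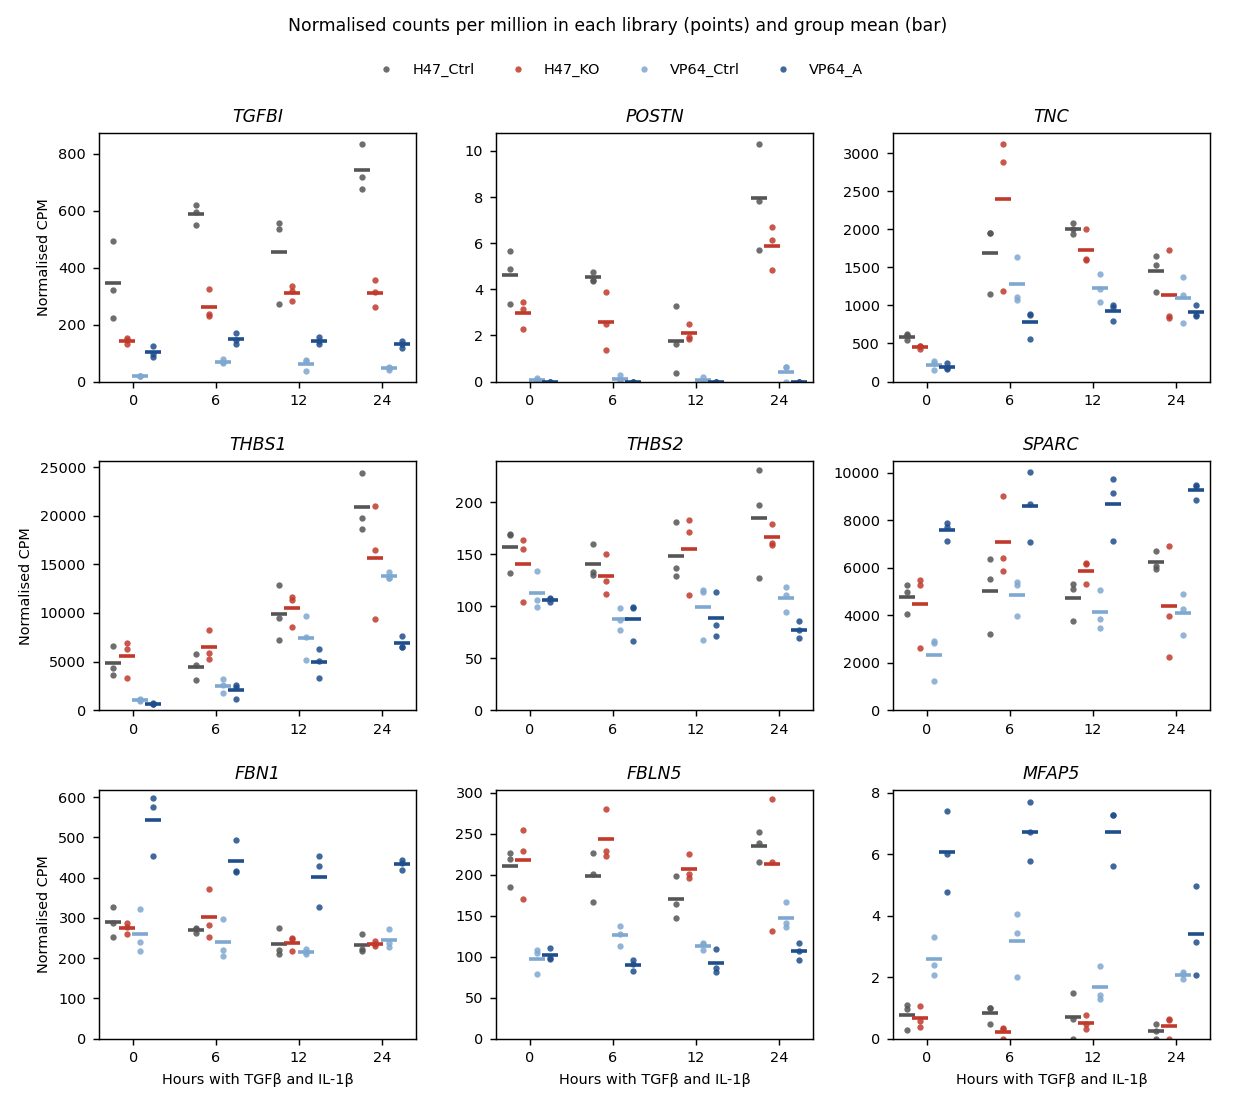
Normalised CPM (linear axes from 0) of 9 members against hours with TGFβ and IL-1β, each point 1 library and each bar the mean of 3, with the 4 cell populations in colour. TGFBI in H47_KO lies below H47_Ctrl at 0, 6 and 24 h and VP64_A lies above VP64_Ctrl at every time, and SPARC and FBN1 in VP64_A lie above VP64_Ctrl at each time.

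SPARC, which binds collagen and calcium, was higher in VP64_A too. At 0 h it was at 2843, 2917 and 1218 normalised CPM in VP64_Ctrl and at 7864, 7720.0 and 7133 in VP64_A. At 12 h it was at 3844, 3459 and 5070.4 in VP64_Ctrl and at 9736, 7142 and 9159.5 in VP64_A. At 24 h it was at 4912, 4256 and 3145 in VP64_Ctrl and at 9494, 9429 and 8854 in VP64_A. No VP64_Ctrl library reached the lowest VP64_A library at these times, nor at 6 h, where the values were 3967, 5259 and 5377 in VP64_Ctrl and 7098, 10047 and 8668 in VP64_A. The log2 fold change was 1.70 ± 0.29 at 0 h (adjusted p = 1.21e-04), 0.82 ± 0.28 at 6 h (adjusted p = 0.120), 1.07 ± 0.28 at 12 h (adjusted p = 0.0200) and 1.17 ± 0.28 at 24 h (adjusted p = 0.00972) by edgeR's quasi-likelihood test. At 6 h, where this test did not call it, SPARC was called with DESeq2 (log2 0.80, adjusted p = 0.0260) and with library totals (log2 0.95, adjusted p = 4.89e-06). Over the 4 times it was 1.19 ± 0.14 (adjusted p = 8.45e-08), or 2.29-fold. The 12 h call was lost without replicate 1 of VP64_A at 12 h (log2 0.98, adjusted p = 0.0691), replicate 3 of VP64_A at 12 h (log2 1.03, adjusted p = 0.0727), replicate 1 of VP64_Ctrl at 12 h (log2 1.03, adjusted p = 0.104) or replicate 2 of VP64_Ctrl at 12 h (log2 0.96, adjusted p = 0.117). For the 24 h call this was so without replicate 3 of VP64_Ctrl at 24 h (log2 1.02, adjusted p = 0.0944). The 12 h call was also lost with only the libraries compared (log2 1.07, adjusted p = 0.109).

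Of the microfibril genes, FBN1 was higher in VP64_A at all 4 times. At 0 h FBN1 was at 217, 239.9 and 321 normalised CPM in VP64_Ctrl and at 455, 599 and 575 in VP64_A, and at 6 h at 219, 206 and 296 and 415, 492 and 415. At 12 h it was at 223, 215 and 209 in VP64_Ctrl and 428, 326 and 454 in VP64_A, and at 24 h at 237, 272 and 228 and 445, 436 and 418. In normalised CPM no library of one group reached the other at any time. In TPM replicate 3 of VP64_Ctrl at 0 h, at 71.9, lay above replicates 1 and 3 of VP64_A, at 57.4 and 70.7. The log2 fold changes lay close together, at 1.07 ± 0.18, 0.88 ± 0.18, 0.90 ± 0.18 and 0.82 ± 0.18 for 0, 6, 12 and 24 h (adjusted p = 1.31e-04, 0.00212, 0.00159 and 0.00412). All 4 calls stood whichever library was left out, while the 24 h call was lost with library totals (log2 0.56, adjusted p = 0.0894). Over the 4 times FBN1 was 1.89-fold higher (log2 0.92 ± 0.091, adjusted p = 1.80e-09). MFAP5 was low in both groups, so counts are given. At 0 h it had 25, 40 and 16 counts in VP64_Ctrl and 70, 38 and 45 in VP64_A, and at 12 h 12, 7 and 5 and 19, 60 and 24. Scaled for depth these were 2.07, 3.31 and 2.40 against 6.01, 4.78 and 7.41 normalised CPM at 0 h and 2.37, 1.28 and 1.42 against 7.29, 7.26 and 5.63 at 12 h. In normalised CPM the MFAP5 libraries were apart at 0, 6 and 12 h and overlapped at 24 h. In TPM they were apart only at 12 h. At 0 h MFAP5 was at 2.21, 3.80 and 6.36 TPM in VP64_Ctrl and at 5.83, 2.72 and 6.20 TPM in VP64_A. MFAP5 was called at 0 h (log2 1.21 ± 0.32, adjusted p = 0.0132) and 12 h (log2 1.97 ± 0.38, adjusted p = 8.73e-04), at 6 h it was 1.13 ± 0.36 (adjusted p = 0.0873), and over the 4 times 1.25 ± 0.18 (adjusted p = 3.38e-06). The 0 h call was lost without replicate 3 of VP64_A at 0 h (log2 1.04, adjusted p = 0.0780), replicate 1 of VP64_Ctrl at 0 h (log2 1.05, adjusted p = 0.0696) or replicate 3 of VP64_Ctrl at 0 h (log2 1.16, adjusted p = 0.0570), and with library totals (log2 0.87, adjusted p = 0.126).

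THBS1, TNC and FBLN5 differed the other way. THBS1 was at 13648, 13609.8 and 14248 normalised CPM in VP64_Ctrl and at 6543, 6486 and 7602 in VP64_A at 24 h, and at 1140.4, 933 and 1016 and 597, 669.8 and 712 at 0 h. The libraries were apart at these 2 times and overlapped at 6 and 12 h. The log2 fold change was -1.01 ± 0.29 at 24 h (adjusted p = 0.0408), which is 2.01-fold lower, -0.64 ± 0.29 at 0 h (adjusted p = 0.176) and -0.60 ± 0.29 at 12 h (adjusted p = 0.324). The last 2 were called with library totals (log2 -1.04, adjusted p = 4.49e-05) and with library totals (log2 -0.64, adjusted p = 0.0261) in turn. The 24 h call was lost without any 1 of the 6 libraries compared, that is without replicate 1 of VP64_A at 24 h (log2 -0.98, adjusted p = 0.164), replicate 2 of VP64_A at 24 h (log2 -0.97, adjusted p = 0.150), replicate 3 of VP64_A at 24 h (log2 -1.09, adjusted p = 0.0968), replicate 1 of VP64_Ctrl at 24 h (log2 -1.02, adjusted p = 0.0886), replicate 2 of VP64_Ctrl at 24 h (log2 -1.02, adjusted p = 0.0918) or replicate 3 of VP64_Ctrl at 24 h (log2 -0.98, adjusted p = 0.108). Over the 4 times THBS1 was 1.55-fold lower (log2 -0.63 ± 0.15, adjusted p = 0.00187).
By edgeR's quasi-likelihood test TNC was called over the 4 times (log2 -0.40 ± 0.12, adjusted p = 0.0181) and at no single time, while at 6 h it was called with DESeq2 (log2 -0.75, adjusted p = 0.0342). Its lowest, median and highest values were 156, 1095 and 1639 normalised CPM in VP64_Ctrl and 159, 869 and 1010.4 in VP64_A, and the groups were apart at 12 h (log2 -0.40 ± 0.24, adjusted p = 0.495) and at 6 h (1114, 1077 and 1639 in VP64_Ctrl, 892, 871 and 563 in VP64_A, log2 -0.72 ± 0.24, adjusted p = 0.110). In TPM the TNC groups overlapped at 6 h, with replicate 2 of VP64_Ctrl at 165 and replicate 1 of VP64_A at 189. FBLN5 in this test was called over the 4 times and at no single time (log2 -0.30 ± 0.076, adjusted p = 0.00521), with 78.8, 116 and 166 normalised CPM in VP64_Ctrl and 81.0, 96.7 and 117 in VP64_A. Its libraries overlapped at 0 and 12 h and were apart at 6 h (log2 -0.48 ± 0.15, adjusted p = 0.0789) and 24 h (log2 -0.47 ± 0.15, adjusted p = 0.0783). It was called at 6 h with DESeq2 (log2 -0.51, adjusted p = 0.0262). At 24 h it was called with DESeq2 (log2 -0.47, adjusted p = 0.0382), with library totals (log2 -0.72, adjusted p = 0.00475) and with only the libraries compared (log2 -0.49, adjusted p = 0.0297). The calls over the 4 times for all 7 members stood whichever library was left out.

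**Figure D3:**
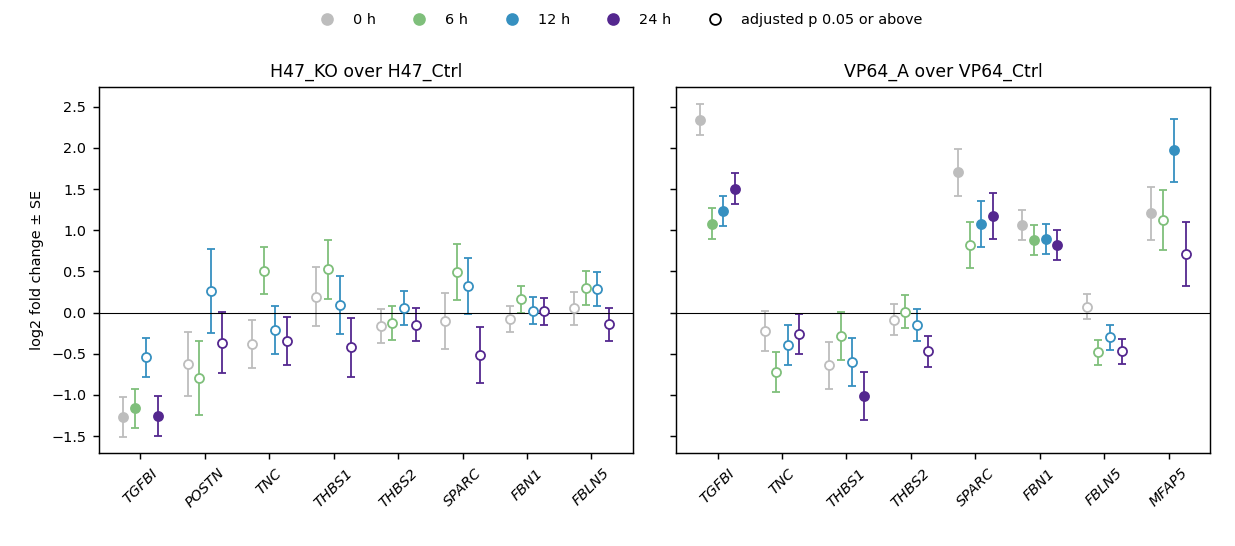
Log2 fold change (± SE) of each tested member at 0, 6, 12 and 24 h, H47_KO over H47_Ctrl on the left and VP64_A over VP64_Ctrl on the right, filled where the adjusted p was under 0.05. TGFBI is the 1 member filled in both panels, below 0 on the left and above 0 on the right.

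The cytokine time course asks how the members respond to TGFβ plus IL-1β within each population, and the libraries at 0 h are shared by the 3 comparisons of a population and with the comparisons above. The 10 members together took 1.22% ± 0.231 (SD, n = 3) of all counts at 0 h and 2.78% ± 0.154 at 24 h in H47_Ctrl, 1.23% ± 0.142 and 2.50% ± 0.444 in H47_KO, 0.572% ± 0.0263 and 2.07% ± 0.0833 in VP64_Ctrl, and 1.03% ± 0.0260 and 1.58% ± 0.0262 in VP64_A. THBS1 and SPARC made up most of this share.

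TNC was the member that rose at every time in every population. In H47_Ctrl it went from 591 ± 39.7 normalised CPM (mean ± SD, n = 3) at 0 h to 1684 ± 464, 2007 ± 73.2 and 1450.4 ± 246 at 6, 12 and 24 h, and in H47_KO from 455 ± 25.3 to 2399.7 ± 1054, 1734 ± 233 and 1138 ± 508. In VP64_Ctrl it went from 223 ± 58.7 to 1277 ± 315, 1225 ± 190.3 and 1093 ± 305, and in VP64_A from 191 ± 43.5 to 775 ± 184, 930.3 ± 117 and 913 ± 75.6. No stimulated library overlapped the 0 h libraries of its population. The log2 fold change at 6, 12 and 24 h was 1.51, 1.76 and 1.30 in H47_Ctrl (adjusted p = 3.11e-04, 3.65e-05 and 0.00265) and 2.40, 1.93 and 1.32 in H47_KO (adjusted p = 2.35e-07, 7.18e-06 and 0.00152). It was 2.52, 2.46 and 2.29 in VP64_Ctrl (adjusted p = 2.14e-09, 4.24e-09 and 1.72e-08) and 2.02, 2.29 and 2.26 in VP64_A (adjusted p = 1.67e-07, 1.86e-08 and 2.43e-08), with SE between 0.25 and 0.31 throughout.

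THBS1, the latent TGFβ activator, had its highest mean at 24 h in every population. In H47_Ctrl it was at 6549.8, 4301 and 3623 normalised CPM at 0 h, 3057, 4637 and 5756 at 6 h, 7253, 9482 and 12839.8 at 12 h and 19792, 24427 and 18624 at 24 h. In H47_KO it was at 6921, 6308 and 3334 at 0 h, 5245, 8236 and 5852 at 6 h, 11668, 8553 and 11282 at 12 h and 21034, 16489.8 and 9385 at 24 h. In both, the 6 h libraries overlapped those at 0 h and the 24 h libraries did not. At 24 h the log2 fold change was 2.12 ± 0.37 in H47_Ctrl (adjusted p = 1.02e-04) and 1.50 ± 0.36 in H47_KO (adjusted p = 0.00340), the latter lost with only the libraries compared (log2 1.50, adjusted p = 0.185). At 12 h THBS1 was called in H47_Ctrl, at 1.03 ± 0.36 (adjusted p = 0.0402), and not in H47_KO, at 0.93 ± 0.36 (adjusted p = 0.0524). In H47_KO it was called with DESeq2 (log2 0.94, adjusted p = 0.0286) and with library totals (log2 0.69, adjusted p = 0.00181). The H47_Ctrl call was lost without replicate 2 of H47_Ctrl at 0 h (log2 0.95, adjusted p = 0.137), replicate 3 of H47_Ctrl at 0 h (log2 0.87, adjusted p = 0.154), replicate 2 of H47_Ctrl at 12 h (log2 1.07, adjusted p = 0.0699) or replicate 3 of H47_Ctrl at 12 h (log2 0.81, adjusted p = 0.168). In the CRISPRa arm THBS1 started lower and rose at all 3 times. VP64_Ctrl was at 1725, 2559.6 and 3163 normalised CPM at 6 h and 7525, 5184 and 9709 at 12 h, and VP64_A at 1169, 2388 and 2552 and 5098, 3328 and 6332, beside the values at 0 and 24 h above. The log2 fold change at 6, 12 and 24 h was 1.27 ± 0.29, 2.86 ± 0.31 and 3.75 ± 0.32 in VP64_Ctrl (adjusted p = 0.00141, 1.16e-08 and 8.19e-11). It was 1.63 ± 0.30, 2.90 ± 0.31 and 3.38 ± 0.32 in VP64_A (adjusted p = 1.18e-04, 9.88e-09 and 5.89e-10), or 13.4-fold and 10.4-fold at 24 h. THBS1 did not pass the test of change with time for VP64_A (adjusted p = 0.830) or for H47_KO (adjusted p = 0.759).

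TGFBI, named for its induction by TGFβ, rose in all 4 populations, from the values listed above. In H47_Ctrl the log2 fold change was 0.77 ± 0.24 at 6 h (adjusted p = 0.0220), 0.39 ± 0.24 at 12 h (adjusted p = 0.261) and 1.10 ± 0.24 at 24 h (adjusted p = 0.00148). H47_KO was called at all 3 times, with 0.87 ± 0.24, 1.12 ± 0.24 and 1.11 ± 0.24 (adjusted p = 0.00774, 5.78e-04 and 9.96e-04). VP64_Ctrl was also called at all 3 times, with 1.80 ± 0.19, 1.60 ± 0.19 and 1.19 ± 0.19 (adjusted p = 7.86e-09, 8.16e-08 and 1.95e-05). VP64_A, which started at a higher level, had 0.54 ± 0.18 at 6 h (adjusted p = 0.0335), 0.49 ± 0.18 at 12 h (adjusted p = 0.0494) and 0.35 ± 0.18 at 24 h (adjusted p = 0.221), the last of which was not called. The H47_Ctrl call at 6 h was lost without replicate 2 of H47_Ctrl at 0 h (log2 0.71, adjusted p = 0.0916), replicate 3 of H47_Ctrl at 0 h (log2 0.53, adjusted p = 0.179) or replicate 3 of H47_Ctrl at 6 h (log2 0.75, adjusted p = 0.0580). The H47_KO call at 6 h was lost without replicate 2 of H47_KO at 6 h (log2 0.73, adjusted p = 0.0557), or with library totals (log2 0.31, adjusted p = 0.252). In VP64_A the 6 h call was lost without replicate 1 of VP64_A at 0 h (log2 0.42, adjusted p = 0.164), replicate 3 of VP64_A at 0 h (log2 0.49, adjusted p = 0.112), replicate 2 of VP64_A at 6 h (log2 0.42, adjusted p = 0.172) or replicate 3 of VP64_A at 6 h (log2 0.55, adjusted p = 0.0632). Its 12 h call was lost without replicate 1 of VP64_A at 0 h (log2 0.38, adjusted p = 0.222), replicate 3 of VP64_A at 0 h (log2 0.43, adjusted p = 0.166), replicate 2 of VP64_A at 12 h (log2 0.40, adjusted p = 0.179) or replicate 3 of VP64_A at 12 h (log2 0.50, adjusted p = 0.0939). The 6 h call was also lost with library totals (log2 0.28, adjusted p = 0.415). So was the 12 h call with DESeq2 (log2 0.48, adjusted p = 0.0587), with DESeq2 size factors (log2 0.48, adjusted p = 0.0561), with library totals (log2 0.25, adjusted p = 0.489), with no filter (log2 0.47, adjusted p = 0.0514) and with only the libraries compared (log2 0.48, adjusted p = 0.0790).

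SPARC, FBLN5 and POSTN were each called in 1 population. SPARC rose in VP64_Ctrl, by a log2 fold change of 1.07 ± 0.28 at 6 h (adjusted p = 0.00494), 0.83 ± 0.28 at 12 h (adjusted p = 0.0280) and 0.82 ± 0.28 at 24 h (adjusted p = 0.0439). Its lowest value at 0 h was 1218 normalised CPM in replicate 3, 1 of the 3 libraries with a scaling factor over 1.5. The 12 h call was lost without replicate 3 of VP64_Ctrl at 0 h (log2 0.49, adjusted p = 0.149) or replicate 3 of VP64_Ctrl at 12 h (log2 0.65, adjusted p = 0.135). The same held for the 24 h call without replicate 3 of VP64_Ctrl at 0 h (log2 0.49, adjusted p = 0.192), replicate 1 of VP64_Ctrl at 24 h (log2 0.67, adjusted p = 0.196) or replicate 2 of VP64_Ctrl at 24 h (log2 0.77, adjusted p = 0.138). Other settings ended the 6 h call with only the libraries compared (log2 1.07, adjusted p = 0.0887). They ended the 12 h call with library totals (log2 0.25, adjusted p = 0.112) and with only the libraries compared (log2 0.81, adjusted p = 0.204). They ended the 24 h call with DESeq2 size factors (log2 0.81, adjusted p = 0.0547), with no filter (log2 0.80, adjusted p = 0.0537), with the replicate block (log2 0.83, adjusted p = 0.0508) and with only the libraries compared (log2 0.81, adjusted p = 0.226). In VP64_A the log2 fold changes of SPARC were 0.18, 0.20 and 0.29, each within 2 SE, and whether SPARC's course differed between the 2 populations did not pass the time test (adjusted p = 0.706). FBLN5 rose in VP64_Ctrl at 24 h, from 109, 104 and 78.8 to 166, 136 and 141 normalised CPM (log2 0.60 ± 0.15, adjusted p = 0.00433), with no overlap on this scale. In TPM the FBLN5 libraries did overlap, with replicate 3 at 0 h at 85.8 and replicate 2 at 24 h at 83.4. The FBLN5 call was lost with library totals (log2 0.18, adjusted p = 0.415). POSTN fell in H47_Ctrl at 12 h, from 42, 21 and 18 counts at 0 h to 1, 5 and 9, or from 5.67, 3.38 and 4.86 to 0.368, 1.64 and 3.26 normalised CPM (log2 -1.39 ± 0.47, adjusted p = 0.0341). At these few counts the call was lost without replicate 1 of H47_Ctrl at 0 h (log2 -1.20, adjusted p = 0.132), replicate 3 of H47_Ctrl at 0 h (log2 -1.35, adjusted p = 0.0649), replicate 1 of H47_Ctrl at 12 h (log2 -0.93, adjusted p = 0.200) or replicate 2 of H47_Ctrl at 12 h (log2 -1.33, adjusted p = 0.109). It stood, at a log2 fold change of -2.13, without replicate 3 of H47_Ctrl at 12 h. At 24 h POSTN was at 5.71, 10.3 and 7.85 in H47_Ctrl and 6.12, 4.85 and 6.69 in H47_KO, with log2 fold changes of 0.73 ± 0.38 (adjusted p = 0.274) and 1.00 ± 0.38 (adjusted p = 0.0696).

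FBN1, THBS2 and MFAP5 were not called with the cytokines in any population by edgeR's quasi-likelihood test. FBN1 in VP64_A at 12 h was called with DESeq2 (log2 -0.45, adjusted p = 0.0390) and with library totals (log2 -0.73, adjusted p = 0.00508), and THBS2 in VP64_A at 24 h with library totals (log2 -0.77, adjusted p = 0.00833) and with only the libraries compared (log2 -0.47, adjusted p = 0.0150). Over the 12 comparisons the log2 fold change of FBN1 ran from -0.43 (12 h in VP64_A, adjusted p = 0.0916) to 0.14 and that of THBS2 from -0.45 (24 h in VP64_A, adjusted p = 0.126) to 0.25. MFAP5 was tested in 6 of them and ran from -0.81 (24 h in VP64_A, adjusted p = 0.122) to 0.24. In H47_Ctrl 2, 3 and 3 of 8 members were called at 6, 12 and 24 h, against 15.9%, 19.6% and 10.3% of all genes. In H47_KO it was 2, 2 and 3 of 8 against 23.9%, 27.4% and 15.8%. In VP64_Ctrl it was 4, 4 and 5 of 8 against 28.8%, 26.8% and 16%, and in VP64_A 3, 3 and 2 of 8 against 17.4%, 19.7% and 13.6%. All of these calls were increases except POSTN in H47_Ctrl at 12 h. Scaled by library totals, the calls were 7 higher and 2 lower in H47_KO (7 and 0 here), 11 and 7 in VP64_Ctrl (13 and 0 here) and 6 and 4 in VP64_A (8 and 0 here).

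**Figure D4:**
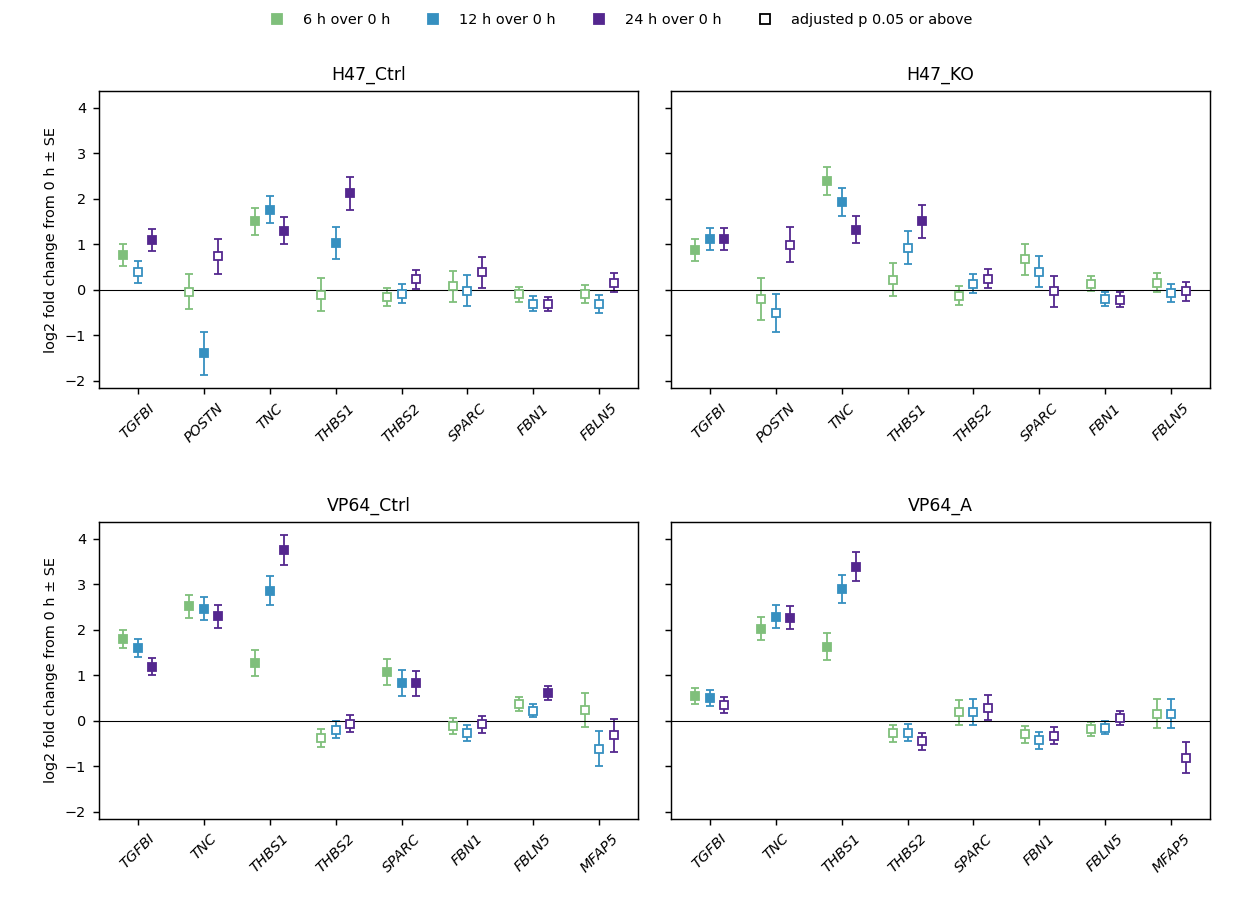
Log2 fold change from 0 h (± SE) of each tested member after 6, 12 and 24 h of TGFβ and IL-1β in the 4 cell populations, filled where the adjusted p was under 0.05. TNC is filled at all 12 points, THBS1 has its highest point at 24 h in each population, and FBN1, THBS2 and MFAP5 have no filled point.

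The control populations of the 2 arms differed in most members before any comparison with GLIS3. Averaged over the 4 times and in a joint fit of all 48 libraries, 8 of 9 tested members were called between VP64_Ctrl and H47_Ctrl, 1 higher and 7 lower in VP64_Ctrl, against 19.5% of all genes. POSTN and MFAP5 passed the filter on low counts only through the arm where they were high. Their calls therefore add no support to this count. TGFBI was 11.4-fold lower in VP64_Ctrl (log2 -3.51 ± 0.12, adjusted p = 2.03e-28), and its 12 VP64_Ctrl libraries, at 19.7, 48.3 and 78.3 normalised CPM for the lowest, median and highest, lay below the 12 H47_Ctrl libraries at 222, 554 and 834. POSTN was lower by a fitted log2 fold change of -4.61 ± 0.39 (adjusted p = 1.61e-12), with 6 of the 12 VP64_Ctrl libraries at 0 counts. THBS1 (-1.02 ± 0.16, adjusted p = 3.09e-06), FBLN5 (-0.75 ± 0.092, adjusted p = 8.06e-09), TNC (-0.73 ± 0.14, adjusted p = 6.16e-05), THBS2 (-0.63 ± 0.10, adjusted p = 5.86e-06) and SPARC (-0.47 ± 0.16, adjusted p = 0.0279) were lower too, MFAP5 was higher (2.08 ± 0.34, adjusted p = 4.28e-06), and FBN1 was not called (-0.094 ± 0.082, adjusted p = 0.480). The SPARC call was lost without replicate 2 of H47_Ctrl at 6 h (log2 -0.41, adjusted p = 0.0638), replicate 3 of VP64_Ctrl at 0 h (log2 -0.39, adjusted p = 0.0548) or replicate 3 of VP64_Ctrl at 24 h (log2 -0.43, adjusted p = 0.0566). VP64_A was thus above VP64_Ctrl in TGFBI but still below H47_Ctrl, the highest VP64_A library being at 171 normalised CPM and the lowest H47_Ctrl library at 222, on scales set within each arm. The arms differ in the Cas9 construct, the cell population and the libraries, and these cannot be told apart.

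The partners of the members were read from 4 gene lists. Of 16 elastic fibre and microfibril partners 14 were tested in each arm. Over the 4 times 8 were higher and 2 lower in VP64_A than in VP64_Ctrl (median log2 0.37, against -0.0037 over all genes, of which 18.4% were called), and 0 were higher and 4 lower in H47_KO than in H47_Ctrl (median -0.21 against -0.0085, with 3.07% of all genes called). LTBP1, which tethers latent TGFβ to fibrillin microfibrils, was at 10.5 ± 3.04 normalised CPM (mean ± SD over 12 libraries) in VP64_Ctrl and at 40.4 ± 7.65 in VP64_A (log2 1.95 ± 0.11, adjusted p = 2.30e-15). In the CRISPRko arm LTBP1 was at 30.5 ± 6.84 in H47_Ctrl and 21.7 ± 4.89 in H47_KO (log2 -0.51 ± 0.10, adjusted p = 0.00146), a call lost with library totals (log2 -0.49, adjusted p = 0.121). MFAP4, a microfibril-associated protein, was higher in VP64_A (log2 0.80 ± 0.10, adjusted p = 1.39e-07) and FBLN2, a fibulin like FBLN5, was lower in H47_KO (log2 -0.64 ± 0.10, adjusted p = 1.41e-04). With the cytokines for 24 h in H47_Ctrl 1 partner rose, LTBP2 (log2 1.00 ± 0.20, adjusted p = 7.37e-04), and 1 fell, EFEMP1 (log2 -0.88 ± 0.16, adjusted p = 2.22e-04), that is 2 of 14 against 10.3% of all genes. The LTBP2 call was lost with library totals (log2 0.79, adjusted p = 0.137).

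Among 15 further matricellular genes 7 were tested in the CRISPRa arm and 8 in the CRISPRko arm, and the counts of these and the next lists stand against 18.4% of all genes called for VP64_A, 3.07% for H47_KO and 10.3% at 24 h in H47_Ctrl. Over the 4 times 0 were higher and 4 lower in VP64_A (median log2 -0.60), led by CCN3, a secreted CCN protein listed as NOV, at -1.96 ± 0.10 (adjusted p = 6.05e-16), and TNFAIP6, a hyaluronan-binding protein, at -1.24 ± 0.11 (adjusted p = 1.47e-10). In H47_KO 1 was higher and 2 were lower, the latter SPOCK1, a proteoglycan of the SPARC family, at -0.44 ± 0.093 (adjusted p = 0.00462), and COMP, a thrombospondin, at -1.09 ± 0.28 (adjusted p = 0.0212), with COMP at 3.25 ± 1.67 normalised CPM in H47_Ctrl and 1.50 ± 0.473 in H47_KO. At these low levels COMP may have passed the filter on low counts only through H47_Ctrl, so its call adds no support to the count of lower genes. The COMP call was lost without replicate 1 of H47_Ctrl at 0 h (log2 -1.02, adjusted p = 0.0598), replicate 2 of H47_Ctrl at 12 h (log2 -0.82, adjusted p = 0.118), replicate 1 of H47_Ctrl at 24 h (log2 -1.03, adjusted p = 0.0555) or replicate 1 of H47_KO at 6 h (log2 -1.01, adjusted p = 0.0506), and with library totals (log2 -1.07, adjusted p = 0.0706). At 24 h in H47_Ctrl 4 of 8 rose and 1 fell (median log2 0.95), among them TNFAIP6, which rose (log2 1.01 ± 0.17, adjusted p = 7.62e-05), and CCN3, which fell (log2 -1.47 ± 0.28, adjusted p = 3.30e-04). The TNFAIP6 call was lost with library totals (log2 0.78, adjusted p = 0.0684). Of 13 receptor genes 10 were tested, with 5 higher and 4 lower in VP64_A and 0 called in H47_KO. The integrin subunit ITGA3 was higher in VP64_A (log2 0.68 ± 0.10, adjusted p = 5.67e-06) and ITGB5, a subunit that pairs with ITGAV, was lower (log2 -0.39 ± 0.077, adjusted p = 3.69e-04), while ITGA5 rose with 24 h of cytokines in H47_Ctrl (log2 0.89 ± 0.25, adjusted p = 0.0157). The ITGA5 call was lost without replicate 2 of H47_Ctrl at 0 h (log2 0.82, adjusted p = 0.0912), replicate 2 of H47_Ctrl at 24 h (log2 0.77, adjusted p = 0.0932) or replicate 3 of H47_Ctrl at 24 h (log2 0.87, adjusted p = 0.0538). ITGA3 there had a log2 fold change of -0.55 ± 0.19 (adjusted p = 0.0658). In H47_KO the receptor genes with the lowest adjusted p were ITGB5 (0.190) and CD47, a thrombospondin receptor (0.261). Of 8 small leucine-rich proteoglycans 3 were tested in the CRISPRa arm and all 3 were lower in VP64_A, among them BGN (log2 -0.73 ± 0.089, adjusted p = 1.32e-07) and LUM (log2 -0.82 ± 0.13, adjusted p = 7.53e-06). In H47_KO 1 of 4 was called, DCN, a collagen-binding proteoglycan, which was lower (log2 -1.30 ± 0.12, adjusted p = 1.01e-08). ASPN there had a log2 fold change of 0.50 ± 0.19 (adjusted p = 0.168), and none of the 4 was called at 24 h in H47_Ctrl, where LUM was at -0.56 ± 0.23 (adjusted p = 0.133) and BGN at 0.64 ± 0.26 (adjusted p = 0.140).

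Members were also set beside each other by the correlation of their mean log2 CPM over the 16 conditions, after each arm's mean was subtracted. These values are descriptions over conditions that share libraries' depth and cells. TGFBI and SPARC were the most alike pair (Pearson r = 0.797), followed by FBN1 and MFAP5 (0.737), SPARC and FBN1 (0.732) and TNC and THBS1 (0.661). FBLN5 and MFAP5 ran most against each other (-0.636). MFAP5 had 0 to 7 counts in H47_Ctrl and 0 to 6 in H47_KO, so its correlations rest in part on values near the limit of detection. Over all genes tested, the pattern of TGFBI was most like those of the fibrillar collagen genes COL5A1 (r = 0.932) and COL1A1 (0.921), and that of FBN1 most like COL11A1 (0.960) and DAPK1 (0.945). TNC was most like SLFN5 (0.984) and BTG3 (0.978), and THBS1 most like OAS1 (0.950) and USP18 (0.948), 2 interferon-induced genes. SPARC was most like the glycolytic genes ALDOA (0.946) and LDHA (0.934), FBLN5 like ACTA2 (0.807) and NECAB1 (0.803), and MFAP5 like NUP93 (0.901) and KRT14 (0.864). THBS2 and POSTN, which changed least or were barely detected, reached 0.862 with ZNF74 and 0.831 with METTL25, and 0.872 with ZNF524 and 0.867 with CCDC109B.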

How the data were processed

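RNA was sequenced from 48 libraries, 3 for each of 16 conditions. The authors deposited 2 tables of 29744 genes, one of estimated counts and one of TPM (transcript abundance scaled by length and library). Per the labels the submitters' notes name bcl2fastq, FastQC, Trim Galore, STAR, Salmon, DESeq2 and GRCh38, while versions, annotation and strand setting are not given in the sources used here. Of the estimated counts 6.38% were not whole, and all were rounded before testing. Library totals ran from 2321990 to 10661004 counts, and intervals and floors cover counting error only.

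Genes were kept by filterByExpr (minimum count 10, minimum total 15), which left 10962 genes in the CRISPRko arm, 10980 in the CRISPRa arm and 11422 over both. The quasi-likelihood F test of edgeR 4.0.16 (limma 3.58.1, R 4.3.3) with TMM scaling was fitted to the 24 libraries of an arm in 8 groups, and p-values were adjusted by Benjamini-Hochberg over all genes tested. Calls are at an adjusted p under 0.05, and the test was checked on simulated data. All 10 members were named. From each of 4 lists the 2 genes with the lowest adjusted p were named in each of 3 contrasts, VP64_A and H47_KO over their controls over the 4 times and H47_Ctrl at 24 h. The SE given with a log2 fold change is its absolute value divided by the square root of the F statistic. It thus restates the F test and is not a separate estimate of error. A member was given a direction where it was called or its log2 fold change exceeded 2 SE. Members and lists were chosen with earlier results of these data known, so counts set against the share of all genes are descriptions. The share of all genes with libraries that did not overlap was not counted, so statements of overlap are descriptions too. No pair of replicates was identical. Libraries with the same number were not treated as pairs, since 3 of 24 correlations of their deviations exceeded 0.1 (-0.047 to 0.135). The alternatives were DESeq2 1.42.0, its size factors, library totals, no filter, a replicate block, only the libraries compared, and leaving out each library.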

Additional observations from a re-analysis of the deposited data

Results flagged for a closer look

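The difference in TGFBI between VP64_A and VP64_Ctrl was not the same at all times, by a test of the difference itself (edgeR quasi-likelihood F test of cells by time, adjusted p = 0.0386, 3 libraries per condition). VP64_A was above VP64_Ctrl in every library at each of the 4 times, with a log2 fold change of 2.34 ± 0.19 at 0 h, 1.08 ± 0.18 at 6 h, 1.23 ± 0.18 at 12 h and 1.51 ± 0.19 at 24 h. The call was lost in 17 of the 24 fits that left out 1 library, where the adjusted p ran from 0.00547 to 0.177, and when libraries were scaled by their totals (adjusted p = 0.398).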

How the results depend on the processing

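Scaling by library totals moved the median log2 fold change of all genes by between -0.733 and 0.371 across comparisons. Of 109 single-gene results, 88 of them called, it weakened 13, strengthened 10 and turned 1, FBLN5 in VP64_Ctrl at 6 h over 0 h, which was -0.36 instead of 0.37 and was called in neither. DESeq2 weakened 1 and strengthened 7, its size factors weakened 2, and no filter weakened 2 and strengthened 1. Using only the libraries compared weakened 6 and strengthened 6 of 84. The replicate block ended 1 call, SPARC in VP64_Ctrl at 24 h over 0 h (log2 0.83, adjusted p = 0.0508), and changed no other. In VP64_A at 12 h over 0 h the TGFBI call was lost in 5 of the 6 settings, all but the replicate block. The number of members whose VP64_A difference changed with time fell from 1 to 0 with library totals and ran from 0 to 1 when a library was left out. The 8 member calls with cytokine time in H47_Ctrl ran from 5 to 8 when a library was left out, with 5 without replicate 3 of H47_Ctrl at 0 h. Leaving out a library ended the call of 19 results at least once and turned the direction of 0. With 3 libraries per condition, and 0 to 7 counts of MFAP5 in the CRISPRko arm and 0 to 5 of POSTN in VP64_Ctrl, depth limited what could be seen for these genes, and the causes of the lost calls were not tested.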
